A study of Caenorhabditis briggsae with 6 samples.

Results

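Cbr-parp-1 is the C. briggsae gene for a poly(ADP-ribose) polymerase, and its transcript was measured by RNA-seq in whole L3-stage hermaphrodites. It is 1 of 23169 genes in the deposited table of counts, where it has the identifier WBGene00026940. The study's gene tables pair that identifier with the locus CBG04221 and the name Cbr-parp-1, and the RefSeq table for assembly CB4 gives the same locus the name Cbr-pme-1. The study also lists Cbr-parp-1 as changed in Cbr-spr-4 or Cbr-htz-1 mutants, which are not among the libraries used here. The gene was chosen because an earlier look at these 6 libraries had placed it among the most strongly raised genes of Cbr-ivph-3 mutants. Its own difference between genotypes is therefore given as a description, with no test.

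Poly(ADP-ribose) polymerases split NAD+ and attach its ADP-ribose part to proteins, often as long chains. PARP-1 binds broken DNA, and the chains it builds there recruit repair proteins before a glycohydrolase removes them. In C. elegans the orthologue, pme-1, serves the response to DNA damage, and poly(ADP-ribose) is also made in the germline while meiotic breaks are repaired.

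The mutant larvae came from strain PS9217, which carries Cbr-ivph-3(sy5216), a single-base substitution that creates a premature stop codon in a gene of the LIN-15B-domain family. Wild-type larvae came from strain AF16. Both strains were bleach-synchronised, grown at 20 °C on E. coli OP50, and collected at L3 once vulval precursor cells of a few animals had divided. There were 3 independent biological replicates per genotype, and the mutant is represented by 1 allele in 1 strain. RNA was taken from whole animals, so a higher level per cell and a larger number of expressing cells cannot be told apart.

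The 6 libraries held 22.8 to 30.9 M counts each. Levels are given in CPM, the unit of edgeR that expresses counts relative to library size (1 CPM is 1 count per 1000000), after scaling of library sizes by the trimmed mean of M-values (TMM), and 14241 genes that passed a low-count filter were tested with edgeR. Of these, 11.7% were called higher and 9.8% lower in the mutant at an adjusted p threshold of 0.05. Scaled by library totals, 23.2% were higher and 4.54% lower. The mutated gene itself, Cbr-ivph-3, stood at 21.0, 20.9 and 20.9 CPM in mutant replicates 1, 2 and 3, against 36.5, 34.5 and 33.0 CPM in AF16 replicates 1, 2 and 3. Its log2 fold change was -0.72 (adjusted p = 0.00565, edgeR), a call not kept with library totals (-0.41). The mutation leaves the gene in place to be transcribed, so a lower level is only a loose check of the labels. Mutant replicate 1 stood apart from the other mutant libraries. The typical tested gene differed by 0.498 (median absolute log2 ratio) between that library and the mean of the other mutant libraries, while the same measure was 0.252 and 0.253 for mutant replicates 2 and 3, and 0.116 to 0.183 for AF16 libraries.

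Cbr-parp-1 transcript was about an order of magnitude more abundant in Cbr-ivph-3 mutants. Its level was 288, 271 and 262 CPM in mutant replicates 1, 2 and 3, against 24.3, 20.9 and 21.3 CPM in AF16 replicates 1, 2 and 3. The lowest mutant library lay far above the highest AF16 library, and the libraries of a genotype lay close together. These levels rest on 8332, 7253 and 9347 counts in the mutant, against 546, 468 and 487 counts in AF16.

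Exact Poisson 95% intervals for counting error alone were 282 to 295, 265 to 277 and 257 to 267 CPM in mutant replicates 1, 2 and 3. They were 22.3 to 26.4, 19.0 to 22.9 and 19.5 to 23.3 CPM in AF16 replicates 1, 2 and 3. These intervals do not cover differences between separate samples. Ordered from high to low, the mutant libraries followed each other as replicates 1, 2 and 3. The intervals of mutant replicates 2 and 3 overlapped, while that of replicate 1 lay above that of replicate 3. Among AF16 libraries, all 3 intervals overlapped.

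**Figure D1:**
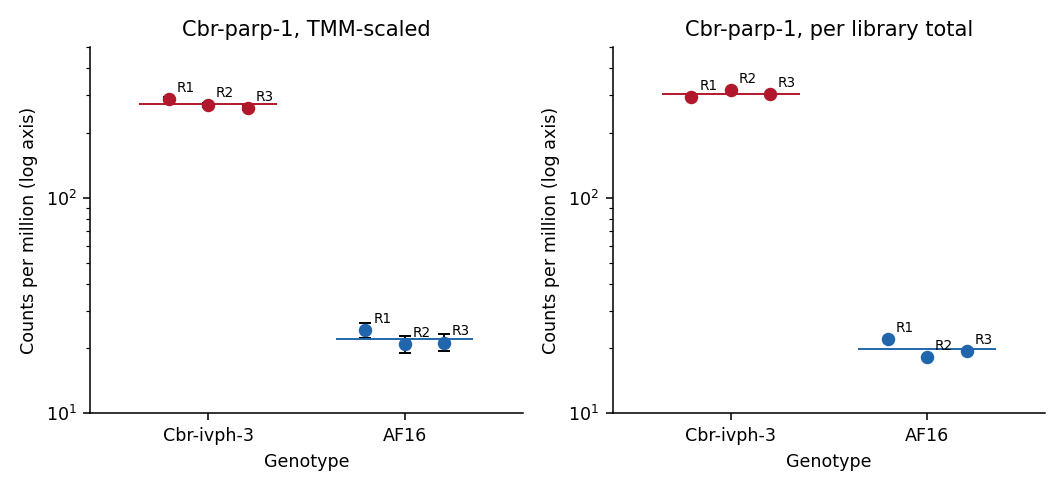
Level of Cbr-parp-1 in each library, in CPM on a log axis, with TMM-scaled library sizes (left panel) and with plain library totals (right panel). Points are libraries R1 to R3 of Cbr-ivph-3 and of AF16, horizontal lines are means of 3, and error bars in the left panel are exact 95% counting intervals; the mutant libraries sit at 262 to 288 CPM and the AF16 libraries at 20.9 to 24.3 CPM in the left panel.

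Means were 274 ± 13.5 CPM in the mutant and 22.2 ± 1.85 CPM in AF16 (SD, n = 3 each). The ratio of these means was 12.3. The fitted log2 fold change, mutant over AF16, was 3.63 with a standard error of 0.13. Set against each AF16 library in turn, a mutant library was between 10.8 and 13.8 times higher, so no single library made the difference. Relative to the AF16 mean, mutant replicates 1, 2 and 3 stood 13, 12.2 and 11.8 times higher.

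With plain library totals, Cbr-parp-1 had CPM of 293, 318 and 303 in mutant replicates 1, 2 and 3, against 22.2, 18.2 and 19.4 in AF16 replicates 1, 2 and 3. The log2 fold change was 3.94 with library totals, and the median of all tested genes moved to 0.37, from 0.06 with TMM. The larger fold with library totals thus came with a like shift of the median gene. The left and right panels of the plot of its level give the libraries under both scalings.

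In level, Cbr-parp-1 stood among the top few percent of tested genes in the mutant and near the middle in AF16. Its mean CPM ranked 500 of 14241 in the mutant (the highest 3.51%) and 6222 of 14241 in AF16 (43.7%). By raw count among all 23169 genes, it ranked 540, 462 and 487 in mutant replicates 1, 2 and 3. In AF16 replicates 1, 2 and 3 it ranked 5944, 6332 and 6348. Every mutant library placed it within the highest 2.33% and every AF16 library at 25.7% to 27.4%. These are ranks of counts, which also grow with transcript length, and no lengths were used.

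In fold change, Cbr-parp-1 ranked 85 of 14241 tested genes, the highest 0.597%. Many genes above it were scarce. Among 10322 genes with a mean of at least 5 CPM it ranked 34, and among 1688 genes with a mutant mean of at least 100 CPM it ranked 5. That set of 1688 was filtered on the mutant level, which Cbr-parp-1 reached only in the mutant (274 CPM, against 22.2 CPM in AF16). Its rank there is a description and no support for the difference. In absolute terms its mean was higher by 252 CPM in the mutant, which ranked 28 of 14241. A large fold and a high level in the mutant are not independent of each other, and the plot of fold change against level gives both.

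In the order of fold change among genes of at least 5 CPM, the nearest genes above Cbr-parp-1 were CBG10132 (log2 fold change 3.71) and Cbr-syp-2 (3.65). The nearest below were CBG11440 (3.60) and CBG26540 (3.58). The distance from Cbr-parp-1 to any of these was under its standard error, so its place among these close neighbours is not resolved.

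The separation between genotypes can also be read without a model, as the lowest mutant library over the highest AF16 library. This ratio was 10.8 for Cbr-parp-1, and 39 of 14241 tested genes had a higher one, 8 of them with no count in AF16. Among genes of at least 5 CPM it ranked 14 of 10322. Every mutant library was at least 10 times every AF16 library for 42 tested genes (0.295%), Cbr-parp-1 included.

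**Figure D2:**
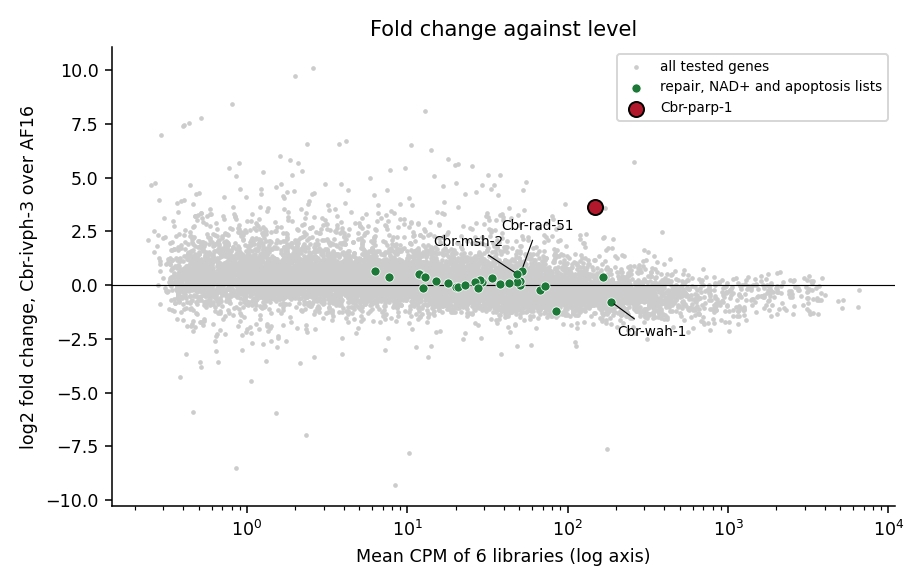
Log2 fold change, Cbr-ivph-3 over AF16, against the mean CPM of 6 libraries on a log axis, with 1 point per tested gene (14241, grey). Cbr-parp-1 (red, log2 fold change 3.63) lies well above the dense part of the cloud at its level. The 28 tested genes of the repair, NAD+ and apoptosis lists (green) lie between -1.22 and 0.68.

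4 genes had a mutant mean of at least 100 CPM and a larger fold than Cbr-parp-1, and 3 of them fell under it once mutant replicate 1 was left out. These were looked at after their values were known. WBGene00034025 had 1440, 41 and 37.9 CPM in mutant replicates 1, 2 and 3, against 9.74, 8.12 and 10.5 CPM in AF16 replicates 1, 2 and 3. WBGene00038448 and WBGene00038447 had the same shape, with 266 and 248 CPM in mutant replicate 1 and 24.7 to 28.5 CPM in the other mutant libraries. WBGene00040667, the fourth, was high in all mutant libraries. Without mutant replicate 1, Cbr-parp-1 had a log2 fold change of 3.58. Without that library WBGene00034025, WBGene00038448 and WBGene00038447 had 2.05, 2.76 and 2.55. Cbr-parp-1 then ranked 3 of 1563 genes with a mean of at least 100 CPM in the remaining mutant libraries, and 26 of 10264 genes with a mean of at least 5 CPM. The set of 1563 was again filtered on the mutant level.

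Evenness between replicates was measured as the coefficient of variation (CV), the SD of CPM over its mean. The CV of Cbr-parp-1 was 4.95% in the mutant and 8.34% in AF16. Counting error alone would give about 1.1% in the mutant and 4.48% in AF16, so part of the AF16 spread is of that size. On the log2 scale, the SD of its CPM was 0.0709 in the mutant and 0.118 in AF16.

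Over all 3 libraries of a genotype, Cbr-parp-1 was more even than most tested genes in the mutant and near the median of genes of its level in AF16. In the mutant its CV ranked 1301 of 14240 genes from the most even (9.14%), where the median gene had a CV of 21.3%. Among genes within 2-fold of its mutant mean it ranked 144 of 967 (14.9%), with a median of 17.6%. In AF16 it ranked 5407 of 14233 (38%), with a median CV of 10.6%. Within 2-fold of its AF16 mean it ranked 2057 of 4109 (50.1%), with a median of 8.32%.

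The mutant rank depended on mutant replicate 1, the library that stood apart. Without it, Cbr-parp-1 ranked at 65.1% of the genes at its mutant level. With other single libraries left out, its mutant rank was 10.8% to 19.6%. The AF16 rank moved from library to library too, at 1.45% without AF16 replicate 1 and 76.8% without AF16 replicate 2. A CV of 3 values is loosely determined, and a CV of a pair more so. With library totals in place of TMM, the CV was 4.05% in the mutant and 10.3% in AF16.

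**Figure D3:**
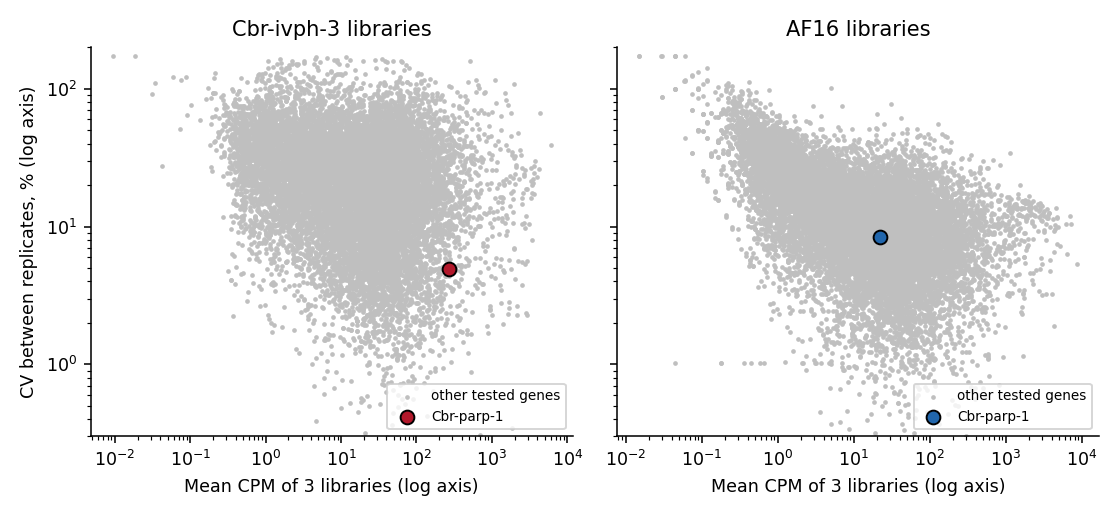
CV between 3 replicates, in percent, against mean CPM, both on log axes, for Cbr-ivph-3 libraries (left) and AF16 libraries (right), with 1 grey point per tested gene. Cbr-parp-1 lies in the lower part of the mutant cloud (CV 4.95% at 274 CPM) and in the middle of the AF16 cloud (CV 8.34% at 22.2 CPM).

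Taking the larger of both CVs for each gene, Cbr-parp-1 ranked 1342 of 14232 (9.43%). Within 2-fold of its mean over all libraries it ranked 309 of 1929 (16%). The edgeR fit gave it a biological CV of 15.8%, against a trend of 23.1% at its level and a median of 21.3% over tested genes.

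Evenness in both genotypes was also described among the genes with the largest rise. There were 62 tested genes with a log2 fold change of at least 3 and a mean of at least 5 CPM, and the median of their larger CV was 29.9%. Of these 62, 3 had a larger CV of 8.34% or less, namely Cbr-parp-1, CBG12360 and CBG22598, beside 9.43% of all tested genes. With so few genes, and Cbr-parp-1 itself counted, this share is not read as a trait of the 62. A gene can also reach that mean through its mutant libraries alone, as CBG22598 had 10, 10 and 9 counts in AF16 replicates 1, 2 and 3. In the mutant alone, 6 of the 62 had a CV of 4.95% or less, beside 9.14% of all tested genes. A mutant mean of 274 CPM or more was reached by 3 of the 62, namely Cbr-parp-1, WBGene00034025 and CBG11440. CBG11440 had 433, 258 and 260 CPM in mutant replicates 1, 2 and 3, against 27.8, 26.0 and 24.6 CPM in AF16 replicates 1, 2 and 3. Cbr-parp-1 was the 1 gene named both for its larger CV and for its level. The limits on CV and level were set by its own values, so this is a description of where it stands.

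Mutant replicate 1 stood out little in Cbr-parp-1. Its log2 ratio to the mean of mutant replicates 2 and 3 was 0.115, smaller in size than in most tested genes (rank 1835 of 14241, or 12.9%). Mutant replicates 2 and 3 differed from the mean of the others by -0.0232 and -0.0947 on the log2 scale. AF16 replicate 1 was the highest of its group, at 0.202 over the mean of the others. The same ratio was -0.126 for AF16 replicate 2 and -0.0825 for AF16 replicate 3.

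**Figure D4:**
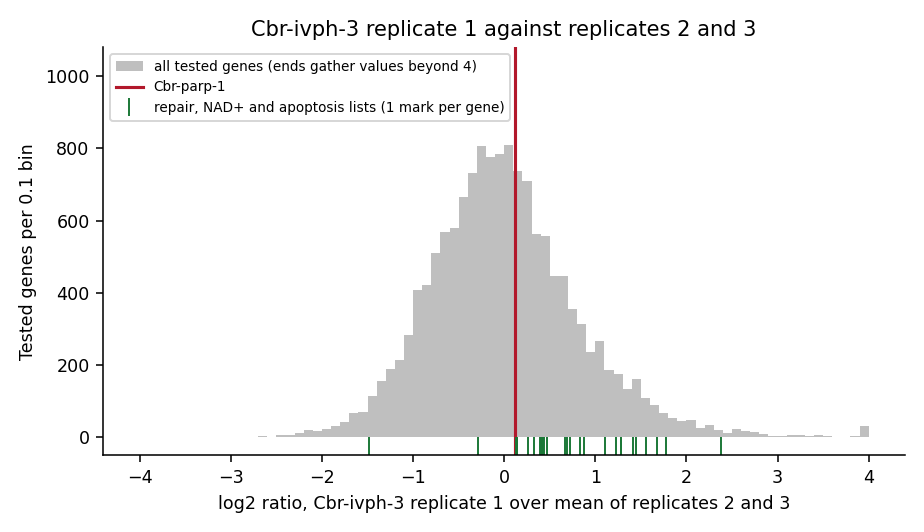
Number of tested genes per bin of 0.1 in the log2 ratio of Cbr-ivph-3 replicate 1 to the mean of Cbr-ivph-3 replicates 2 and 3. The red line marks Cbr-parp-1 at 0.115, near the centre, and the green marks are the 28 genes of the repair, NAD+ and apoptosis lists, which lie mostly to the right with a median of 0.681.

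Markers of cell types differed between the libraries, and are given summed over the list members that could be identified. These were 6 of 12 germline and 2 of 7 sperm markers. The study had listed each of them as changed in Cbr-spr-4 or Cbr-htz-1 mutants, so they are a selected sample. The 6 germline markers summed to 826, 355 and 366 CPM in mutant replicates 1, 2 and 3, against 307 to 327 CPM in AF16. The 2 sperm markers summed to 18.1 CPM in mutant replicate 1, to 0.411 and 0.336 CPM in mutant replicates 2 and 3, and to 0.306 to 0.756 CPM in AF16. The germline sums combine members that differ in direction. Cbr-gld-1, a translational repressor of the germline, had 394, 231 and 238 CPM in mutant replicates 1, 2 and 3, against 83.3, 94.3 and 85.5 CPM in AF16 replicates 1, 2 and 3. It was called higher (log2 fold change 1.72, adjusted p = 0.00443, edgeR), as was the meiotic axis gene Cbr-him-3 (1.22, adjusted p = 0.00732, edgeR), and both were also called without mutant replicate 1 (1.41 and 0.99). Cbr-pgl-1, a P granule gene, had 248, 59.5 and 61.8 CPM in mutant replicates 1, 2 and 3, against 146, 140 and 158 CPM in AF16 replicates 1, 2 and 3. It and the other 3 germline markers, Cbr-rec-8, Cbr-syp-1 and Cbr-glp-1, did not pass with all libraries and were called lower without mutant replicate 1.

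Of the 13 somatic markers, 8 could be identified only because the study listed them as changed in Cbr-ivph-3 mutants, so their direction is not independent of this contrast. Those 8 include all 6 that were called lower, and none of the other 5 passed. The other 5 were identified because the study listed them as changed in Cbr-spr-4 or Cbr-htz-1 mutants, so they are selected too. Without mutant replicate 1, Cbr-cpr-6 (-0.50), Cbr-sqt-3 (-1.40), CBG00120 (-2.61) and Cbr-myo-1 (-2.62) of those 5 were called lower, and Cbr-rol-6 (-0.08) was not. Of all tested genes, 9.8% were called lower with all libraries and 28.6% without mutant replicate 1. The 2 body wall muscle markers summed to 1060 to 3040 CPM in the mutant and 3770 to 4130 CPM in AF16. The 4 intestine markers summed to 680 to 1240 CPM in the mutant and 1620 to 1810 CPM in AF16. The 5 hypodermis markers gave 1290 to 2520 CPM in the mutant and 2300 to 2990 CPM in AF16, and the 2 pharynx markers gave 140 to 607 CPM in the mutant and 662 to 1110 CPM in AF16. None of these markers was at 0 in all libraries, and no neuron marker of the list was analysed here. The part of these cell-type differences in the level of Cbr-parp-1 was not tested.

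The other genes of poly(ADP-ribose) turnover could not be set beside it. Cbr-pme-2 (a second nuclear polymerase), Cbr-pme-5 (the tankyrase) and Cbr-pme-3 (a poly(ADP-ribose) glycohydrolase) are in the RefSeq table, but their counted identifiers were not paired with a name and they were not analysed here. The wider pathways were represented by 28 tested genes of 5 lists, 14 of double-strand break repair and damage checkpoint, 6 of nucleotide excision, mismatch and translesion repair, 3 of NAD+ synthesis and use, 3 of apoptosis and corpse clearance, and 2 of base excision and single-strand break repair. Each had been named by the study because it changed in another mutant (Cbr-spr-4 or Cbr-htz-1), so they are a partial and selected sample of their pathways. Cbr-parp-1 was listed in the same way, so a change of this gene is not particular to Cbr-ivph-3 mutants. Cbr-nprt-1, Cbr-kynu-1, Cbr-ung-1, Cbr-cku-80, Cbr-gen-1 and Cbr-ced-6 were identified only because the study listed them as changed in Cbr-ivph-3 mutants, and were left out. Among these, Cbr-cku-80 was called higher, Cbr-gen-1 and Cbr-ung-1 (log2 fold change -1.03) lower, and the rest did not pass. The share of calls among the 28 thus depends on how the genes were identified.

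The 28 listed genes did not move as Cbr-parp-1 did. Of the 28, 2 passed as higher, 1 as lower and 25 not at all, while 11.7% and 9.8% of all tested genes were higher and lower. Their median log2 fold change was 0.14, against 0.06 over all tested genes, and 20 of them were above 0. The genotypes did not overlap in CPM for 6 of the 28, against 42.3% of all tested genes. With library totals, 7 were higher and 1 lower, where 23.2% and 4.54% of all tested genes were called higher and lower. Their median was then 0.42, beside a median of 0.37 over all genes. Without mutant replicate 1, 3 were higher and 10 lower and the median was -0.16, where 31.1% and 28.6% of all tested genes were called higher and lower.

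Among double-strand break repair genes, Cbr-rad-51, the recombinase that pairs a broken end with its template, had 67.2, 62.6 and 60.7 CPM in mutant replicates 1, 2 and 3. It had 36.7, 45.9 and 36.2 CPM in AF16 replicates 1, 2 and 3. It rose in the mutant (0.68 ± 0.14 on the log2 scale, fitted difference ± standard error), with adjusted p = 0.0166 in edgeR's quasi-likelihood test after Benjamini-Hochberg adjustment. The call was lost without mutant replicate 2 or 3 or AF16 replicate 1 or 3, where its log2 fold change was 0.58 to 0.71. The other 13 genes of this list did not pass, among them the checkpoint kinases Cbr-atl-1 (0.14) and Cbr-chk-1 (-0.10), the end-joining factor Cbr-cku-70 (0.14) and the break-joining polymerase Cbr-polq-1 (0.26). As a group they were high in mutant replicate 1, with a median log2 ratio of 1.26 to the other mutant libraries. Cbr-cku-80 (log2 fold change 0.72, adjusted p = 0.0105, edgeR) was called higher and Cbr-gen-1 (-0.67, adjusted p = 0.0112, edgeR) lower. Both belong to this pathway but were left out of the list, being identified only because the study listed them as changed in Cbr-ivph-3 mutants.

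The genes of this list differed among themselves in their spread. Cbr-rad-51 was about as even over the mutant libraries as Cbr-parp-1, and Cbr-chk-1 had 21.8, 18.3 and 18 CPM there. The helicase gene Cbr-him-6, named after its values were seen, lay at the other end. It had 40.4, 7.99 and 7.45 CPM in mutant replicates 1, 2 and 3, against 17.3, 18.6 and 16.1 CPM in AF16 replicates 1, 2 and 3. Its single high mutant library gave a log2 fold change of 0.10 with all libraries and -1.18 without mutant replicate 1. Cbr-parp-1 moved from 3.63 to 3.58 under the same omission.

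Among the excision and mismatch repair genes, Cbr-msh-2, which recognises mismatched bases, had 66.0, 53.2 and 52.1 CPM in mutant replicates 1, 2 and 3. It had 41, 38.2 and 41 CPM in AF16 replicates 1, 2 and 3. The fitted log2 difference was 0.51 ± 0.14 (± standard error), and the same edgeR test gave an adjusted p of 0.0404. The call was lost without any 1 library other than mutant replicate 1 (0.45 to 0.57), with DESeq2 size factors (0.49), with no low-count filter (0.47) and with a replicate block (0.50, adjusted p = 0.0707, edgeR). Its partner Cbr-msh-6 (-0.06) and the mismatch repair gene Cbr-mlh-1 (0.40) did not pass. In base excision repair, Cbr-crn-1 (0.04), an endonuclease homologue, and the dUTPase gene Cbr-dut-1 (0.03) did not pass.

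The NAD+ genes bear on the substrate of the enzyme. None of the 3 passed, and their median log2 fold change was -0.22. Cbr-haao-1, of the kynurenine branch of NAD+ synthesis, had 23.2, 65.8 and 64.3 CPM in mutant replicates 1, 2 and 3, against 122, 120 and 115 CPM in AF16 replicates 1, 2 and 3. All its mutant libraries lay below all its AF16 libraries, with mutant replicate 1 lowest, and its log2 fold change of -1.22 had an adjusted p of 0.0619 in the same edgeR test. Cbr-nnt-1, the nicotinamide nucleotide transhydrogenase gene, had 0.50 (adjusted p = 0.0532, edgeR). Cbr-umps-1, whose C. elegans orthologue can feed quinolinic acid into NAD+ synthesis, had -0.22. Without mutant replicate 1 all 3 passed, Cbr-haao-1 at -0.88 and Cbr-umps-1 at -0.57 as lower and Cbr-nnt-1 at 0.59 as higher. With that library left out, most tested genes passed, 31.1% as higher and 28.6% as lower.

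In the apoptosis list, Cbr-wah-1, the homologue of apoptosis-inducing factor, had 165, 121 and 127 CPM in mutant replicates 1, 2 and 3. It had 225, 243 and 236 CPM in AF16 replicates 1, 2 and 3. It fell in the mutant, with a log2 difference of -0.77 ± 0.15 (± standard error) and an adjusted p of 0.0156 in the same edgeR test, a call lost without any 1 library other than mutant replicate 1 (-0.84 to -0.68). The caspase gene Cbr-ced-3 (-0.14) and the engulfment gene Cbr-ced-7 (0.38) did not pass. The largest positive fold change among these 28 genes stayed far under that of Cbr-parp-1, as the plot of fold change against level shows.

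Likeness to Cbr-parp-1 was measured over the 6 libraries as the root mean square difference of log2 CPM after each gene was centred on its own mean, over 10318 genes of at least 5 CPM. The median gene differed by 1.86, and 13 genes lay within 0.3. The nearest was WBGene00040667 at 0.146, which carries no name here. It had 219, 160 and 156 CPM in mutant replicates 1, 2 and 3, against 13.4, 12.7 and 12.4 CPM in AF16 replicates 1, 2 and 3. Its mutant libraries were less even than those of Cbr-parp-1, with replicate 1 the highest.

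The next was CBG08016 at 0.195, a gene of much lower level. It had 32.9, 29.6 and 32.7 CPM in mutant replicates 1, 2 and 3, against 1.96, 2.32 and 2.28 CPM in AF16 replicates 1, 2 and 3. CBG11440, described above, followed at 0.216. Cbr-mina-1 lay at 0.22, with 83.0, 63.4 and 65.1 CPM in mutant replicates 1, 2 and 3, against 6.89, 7.90 and 6.35 CPM in AF16 replicates 1, 2 and 3. CBG06585 lay at 0.234 and CBG24490 at 0.235. Cbr-mina-1 and CBG24490 are next to each other in the RefSeq order of assembly CB4.

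The log2 fold changes of these 6 genes were 3.18 to 3.86, and being chosen by their profile they had to be near that of Cbr-parp-1. Their mutant means were 10 to 317 CPM, so a like profile occurred at very different levels. CBG24490 was the most even of them in the mutant, with 58.3, 56.7 and 58.0 CPM in mutant replicates 1, 2 and 3, against 6.72, 5.76 and 6.66 CPM in AF16 replicates 1, 2 and 3.

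**Figure D5:**
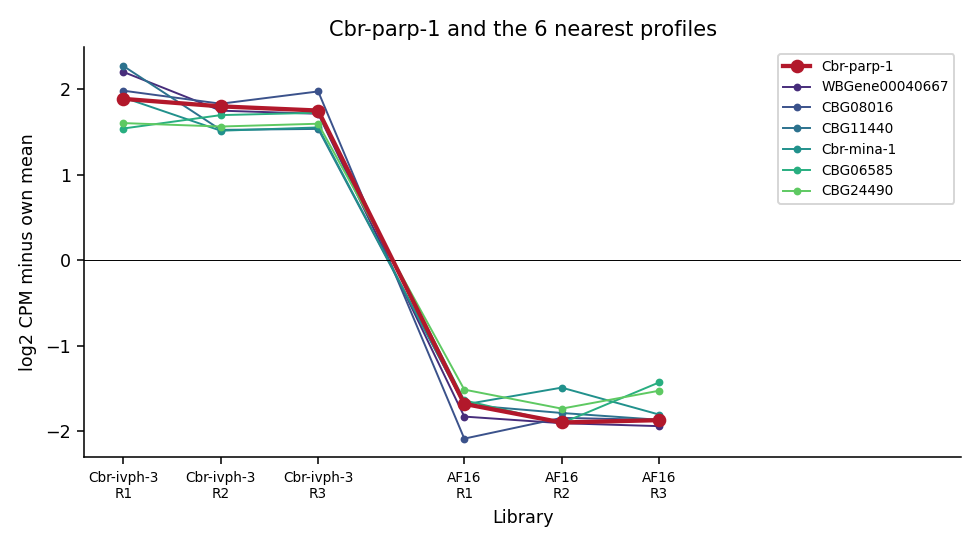
Log2 CPM minus the mean of each gene over 6 libraries, for Cbr-parp-1 (thick red line) and the 6 genes with the nearest profile, with Cbr-ivph-3 libraries at the left and AF16 libraries at the right. All lines drop between the genotypes, and they spread most in Cbr-ivph-3 replicate 1, where CBG11440 is highest.

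On chromosome I, the RefSeq table places CBG04223, Cbr-arx-1 and Cbr-dnc-5 on one side of Cbr-parp-1 and CBG04220, Cbr-trap-1 and Cbr-nxt-1 on the other. None of these 6 genes was paired with a counted identifier, so none was analysed here. The nearest paired genes on either side were CBG04227 and Cbr-syp-4, each at the fifth place from Cbr-parp-1, and they were taken for that reason alone. CBG04227 had 473, 461 and 457 CPM in mutant replicates 1, 2 and 3, against 649, 667 and 595 CPM in AF16 replicates 1, 2 and 3. It was called lower (log2 fold change -0.46, adjusted p = 0.0301, edgeR). Cbr-syp-4, a synaptonemal complex gene, had 53.2, 17 and 17.2 CPM in mutant replicates 1, 2 and 3, against 19.8, 21.2 and 19.0 CPM in AF16 replicates 1, 2 and 3. It did not pass (0.54, adjusted p = 0.44, edgeR). Neither gene moved as Cbr-parp-1 did. The authors counted with a reverse-stranded setting while the kit named for the libraries does not mark strand, so reads of Cbr-parp-1 and of any overlapping gene on the opposite strand cannot be told apart.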

How the data were processed

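The deposited values are raw counts of read pairs per gene for 3 Cbr-ivph-3 and 3 AF16 libraries. The authors aligned paired-end reads with STAR to the WS279 genome and counted over exons with featureCounts on Galaxy, at the reverse-stranded setting and without chimeric pairs. The versions are not given in the sources used here. The authors' own fold changes and p-values were not used.

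Counts were analysed in R 4.3.3 with edgeR 4.0.16: TMM scaling, filterByExpr (14241 of 23169 genes kept), robust glmQLFit and glmQLFTest with genotype as the only term, and Benjamini-Hochberg adjustment over all tested genes at 0.05. The standard error was the fold change over the root of F. Intervals are exact Poisson, at 95%, and cover counting error only. Scripts were tested on simulated data.

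Alternatives were library totals, upper-quartile scaling and DESeq2 size factors, a filter of at least 10 counts per library (13199 genes) or none (20256 genes), limma-voom (limma 3.58.1), DESeq2 1.42.0 (16189 genes with an adjusted p), a replicate block, and each library left out in turn. Ranks in level and evenness took the scaling, filter and left-out-library alternatives only.

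Identifiers were paired with names through the study's gene tables (3900 with a locus, 1860 of them with a symbol) and RefSeq (assembly CB4). Pathway lists used the 1488 identifiers listed there as changed in Cbr-htz-1 or Cbr-spr-4 mutants, the blocks available in full. Pathway members listed there only as changed in Cbr-ivph-3 mutants were left out. Cell-type markers were kept whichever of these mutants they were listed for. Named genes were Cbr-parp-1, Cbr-ivph-3, up to 4 called genes with the smallest p per list, the 6 nearest profiles and the 3 genes on each side; others were chosen after their values were seen. Members and lists were chosen with earlier results of these data known. Ratios between replicates used 0.1 CPM as pseudocount.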

Additional observations from a re-analysis of the deposited data

How the results depend on the processing

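The log2 fold change of Cbr-parp-1 was 3.56 to 3.94 over all 14 alternatives, at 3.94 with library totals and 3.56 to 3.66 with 1 library left out. Its rank in level kept within 477 to 515 in the mutant and 6143 to 6351 in AF16 with 1 library left out. Its place in evenness among genes of like level, 14.9% in the mutant and 50.1% in AF16, was less settled. The mutant value was 3.55% with upper-quartile scaling, 9.1% with library totals and 10.8% to 65.1% with 1 library left out, and the AF16 value was 1.45% to 76.8% with 1 library left out. Library totals called 3297 genes higher and 646 lower. With 1 library left out, 605 to 4497 genes were higher and 625 to 4147 lower, and the highest counts were those without mutant replicate 1. Of the 28 pathway genes, 1 was higher with DESeq2 size factors and with no low-count filter, 7 with library totals, 0 to 3 with 1 library left out, and 2 were lower with DESeq2 and 0 to 10 with 1 library left out. The cause of these moves was not tested.

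The main fit did not pair libraries by replicate number. Same-numbered libraries had correlations of 0.152, 0.174 and -0.0667 between their deviations from the mean of each genotype. Other pairs had -0.204 to 0.208. Deviations from a mean of 3 libraries are tied to each other, so these values cannot settle whether same-numbered libraries were prepared together. With a replicate block the log2 fold change of Cbr-parp-1 was 3.63, 1236 genes were higher and 1100 lower, and 1 pathway gene was higher and 1 lower.

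For 10 other named genes, no direction was reversed. They kept their side of the threshold 122 times and lost the call 18 times, the losses falling on Cbr-rad-51, Cbr-msh-2, Cbr-wah-1 and, with library totals, Cbr-ivph-3 (-0.41). Groups of 3 libraries are too small for an outlier test, and the depth of 468 to 546 counts in AF16 limits how finely its spread is known.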
